A study of Homo sapiens with 6 samples.

Results

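Heat shock proteins and the DNAJ proteins that work with them make up the folding machinery of the cell, and their transcripts were compared in human fibroblasts with and without an induced RAS oncogene. Genes were taken by symbol: the HSPA, HSPB, HSPD, HSPE and HSPH series, HSP90AA1, HSP90AB1 and HSP90B1, and the DNAJA, DNAJB and DNAJC series, leaving out pseudogenes named as such (symbols ending in P and digits). That gave 72 of the 59050 entries of the expression table, of which 64 had a mean of at least 1 TPM (a transcript's share of the library, per unit of its length) over the 6 libraries and were tested. Each gene was placed by the known site of its protein in the cytosol and nucleus (40 genes), the endoplasmic reticulum or ER (13), the mitochondria (8), or elsewhere or nowhere (11).

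The cells were human foreskin fibroblasts (HFF) at about passage 18 that carried ER:RAS, H-RAS G12V joined to an oestrogen receptor domain, brought in with a virus packaged in HEK293T cells and kept under 200 µg/ml neomycin. In the 4-OHT group, 3 libraries were made from cells given 100 nM 4-hydroxytamoxifen, the ligand that switches the fusion on, and harvested after a week. In the DMSO group, 3 libraries were made from the same kind of cells with DMSO. All 6 libraries thus came from cells with the vector, and 4-OHT acting by itself cannot be told apart from RAS activity here. Nothing in the labels says that the 3 libraries of a group were separate cultures, so the p-values measure the spread between these libraries, which may be technical.

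HSP70 proteins bind exposed stretches of unfolded protein and release them in a cycle driven by ATP. J-domain proteins (DNAJ) bring clients and start the ATP step, nucleotide exchange factors such as the HSP110 proteins reset it, HSP90 takes over late folding of kinases and receptors, and small heat shock proteins hold unfolded proteins until they can be refolded. The cytosol, the ER and the mitochondrion each have their own set, and in the cytosol the transcription factor HSF1 raises many of these genes under stress by binding heat shock elements in their promoters, whereas ER stress acts on its own promoter element.

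HRAS stood at 1316, 1305 and 1222 TPM in the 4-OHT libraries, against 942, 908 and 956 TPM in the DMSO libraries, a row that adds the introduced and the native transcript. All 10 fibroblast markers of the list used were above 1 TPM. Their summed level was between 26470 and 26870 TPM in 4-OHT and between 24520 and 25470 TPM in DMSO. Markers of keratinocytes and epithelium (2 of 6 above 1 TPM) summed to between 32.8 and 43.2 TPM in 4-OHT and between 37.6 and 52.5 TPM in DMSO, and immune markers (2 of 5) to between 59.5 and 67.2 TPM in 4-OHT and between 60.1 and 90.5 TPM in DMSO. Endothelial and melanocyte markers (1 of 5 and 1 of 4) summed to at most 2.64 TPM in any library, and TYR and DCT, which define melanocytes, were listed at 0 throughout. The part of other cell types in the results was not tested.

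In the 4-OHT libraries the stress-inducible HSP70 genes HSPA1A and HSPA1B and most small heat shock proteins of the cytosol fell. Not every inducible gene did so: the heat-inducible DNAJA4 was not called, and HSPA6 was under the level for testing. The J-domain co-chaperones of cytosolic HSP70 and of the ER HSP70 moved both ways. Several rose, while others, such as DNAJB1, DNAJB2 and DNAJC1, fell. By the test, 15 of the 64 came out higher and 26 lower in 4-OHT (limma on log2(TPM + 1), Benjamini-Hochberg adjusted p under 0.05 over all 15272 genes tested). Together 64.1% of them were called, against 49.6% of all genes tested. The share called higher was 23.4%, against 19.8% of all genes, and the share called lower was 40.6%, against 29.9%. The median log2 fold change was -0.14, against -0.09 over all genes. Scaling the libraries between each other by the median of ratios gave 17 genes higher and 20 lower, and quantile normalization 17 higher and 22 lower. Among all genes 49.5% and 49.7% of the calls were lower under these scalings, against 60.2% for the values as deposited, and among the heat shock and DNAJ genes 54.1% and 56.4%, against 63.4%, so the lean towards lower levels depends in part on the scaling. Levels were fully separated between the groups with 4-OHT above for 16 of the 64 genes, a share near the 23.8% of all genes. With 4-OHT below they were separated for 28 of the 64, against 35.2% of all genes (59% in either direction). In bulk RNA, fewer cells that express a gene cannot be told apart from less RNA per cell.

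Of the 25 tested genes with HSP symbols, 3 were higher and 13 lower, with a median of -0.27. Of the 39 tested DNAJ genes, 12 were higher (30.8%) and 13 lower (33.3%), with a median of 0.03. The difference between these sets was not tested. By compartment, 8 genes were higher and 15 lower of 34 tested in the cytosol and nucleus, 5 higher and 3 lower of 13 in the ER, 1 higher and 3 lower of 8 in mitochondria, and 1 higher and 5 lower of 9 placed elsewhere or nowhere. The remaining 8 genes were under the level for testing: HSPA6, a strictly stress-inducible HSP70, stayed at 0.518 TPM or less in every library, DNAJB3 was listed at 0 in all 6, and HSPA7, HSPA12B, HSPB9, DNAJB7, DNAJB8 and DNAJB13 had means under 1 TPM. HSPA7 and DNAJB3 are annotated as pseudogenes in GENCODE 29.

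**Figure D1:**
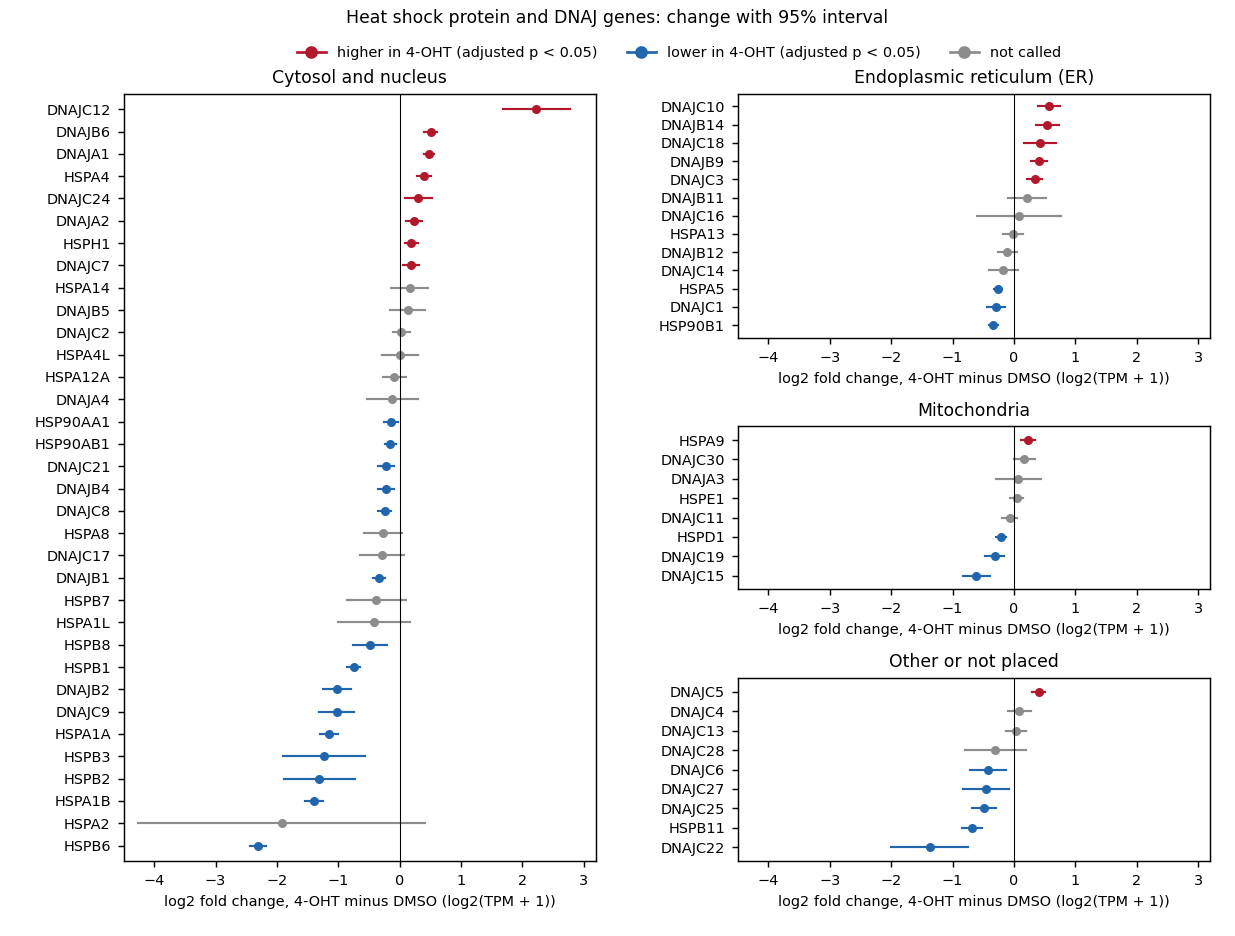
Log2 fold change (4-OHT minus DMSO, log2(TPM + 1) scale, horizontal axis) of the 64 tested heat shock protein and DNAJ genes, sorted from high to low within each compartment panel, with 95% confidence intervals from limma. Of the coloured, called genes, 15 lie to the right of 0 and 26 to the left, and HSPB6 at -2.31 and DNAJC12 at 2.22 lie at the ends. DNAJC12 reached the level for testing only through the 4-OHT libraries.

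Among the HSP70 genes of the cytosol the stress-inducible copies HSPA1A and HSPA1B fell, while HSPA6, also stress-inducible, was under the level for testing. HSPA1A, a heat-inducible HSP70 (GRCh38, chr6:31815464-31817946, plus strand), had 58.7, 60.4 and 55.1 TPM in the 4-OHT libraries, against 140.0, 124 and 129 TPM in the DMSO libraries (log2 fold change -1.16, SE 0.0624, adjusted p = 8.34e-06). HSPA1B, its near-copy beside it (chr6:31827735-31830255, plus strand), had 44.5, 45.5 and 41.3 TPM in 4-OHT, against 124, 111 and 115 TPM in DMSO (-1.40, SE 0.0634, adjusted p = 3.94e-06). For both genes every 4-OHT library lay under every DMSO library, with a gap far wider than the spread within either group. Their transcripts were 98.6% identical over 2152 aligned bases, so the split of reads between them is uncertain, while the sum of the pair was 102 ± 4.92 TPM in 4-OHT and 248 ± 15.2 TPM in DMSO (SD, n = 3 each), a ratio of 0.411.

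HSPA8, the constitutive HSC70 and the most abundant of the 72 genes, had 1724, 1231 and 1788 TPM in 4-OHT, against 1887, 1845 and 1904 TPM in DMSO. The groups did not overlap, yet 4-OHT replicate 2 lay far under its fellows and the difference did not pass the test (-0.27, SE 0.132, adjusted p = 0.135; 95% interval -0.579 to 0.0436). Within each library the ratio of HSPA1A plus HSPA1B to HSPA8 was 0.0599, 0.0860 and 0.0539 in 4-OHT, against 0.140, 0.127 and 0.128 in DMSO, a log2 difference of -1.01 that a single scaling factor per library cannot move. All 3 libraries of 4-OHT were under the DMSO libraries for this ratio, chosen after its values were seen (exact permutation test, 2-sided, p = 0.1, the smallest that 3 against 3 libraries can give; adjusted over 5 such ratios, p = 0.125). Of the HSP70 genes of restricted tissues, HSPA2, best known from testis, ranged from 0.694 to 20.8 TPM in 4-OHT and from 8.70 to 56.7 TPM in DMSO, a spread too wide for a call (-1.92, adjusted p = 0.150).

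Heat shock elements are inverted repeats of the unit GAA, and promoter stretches with matches are shown for some genes because the genes that bear them did not move alike. The matches of other genes, such as HSPB3, HSPB8 and DNAJC15, are not printed. RefSeq promoter windows of GRCh38.p14, from 250 bases before to 50 bases after the transcript start, were at hand for 63 of the 72 genes and were searched on both strands for 2 units (GAANNTTC or TTCNNGAA) and for 3 units (GAANNTTCNNGAA or TTCNNGAANNTTC). A match of 3 units contains matches of 2. The capitals below mark the matched units, and each stretch has 10 bases on either side.
HSPA1A, chr6:31815427-31815454 on the plus strand: gaaaaccctgGAATATTCccgacctggc
HSPA1B, chr6:31827623-31827650 on the plus strand: gaaacccctgGAATATTCccgacctggc
HSPB1, chr7:76302481-76302508 on the plus strand: cttaacgagaGAAGGTTCcagatgaggg
HSPB6, chr19:35757208-35757249 on the minus strand: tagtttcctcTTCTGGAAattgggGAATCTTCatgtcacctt
HSPA8, chr11:123062344-123062376 on the minus strand: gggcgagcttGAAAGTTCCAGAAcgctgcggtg
HSPA8, chr11:123062169-123062201 on the minus strand: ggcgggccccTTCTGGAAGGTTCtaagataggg
DNAJA1, chr9:33025065-33025092 on the plus strand: aagggctccaGAAGATTCcacgagcgcc
DNAJB6, chr7:157336863-157336895 on the plus strand: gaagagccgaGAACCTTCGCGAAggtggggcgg

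The HSPA1A and HSPA1B stretches lie 116 to 89 and 115 to 88 bases before their RefSeq starts and carry the same 8 letters, GAATATTC. The GENCODE 29 start of HSPA1A lies between its stretch and its RefSeq start. HSPB6 shows 2 separate matches of 2 units within 42 bases. HSPA8 has 2 matches of 3 units, and DNAJB6 has 1 match of 3 units, while the 3-unit match of DNAJA1 lies past its start, so that only its upstream match of 2 units is printed. In the GENCODE 29 annotation the annotated spans of HSPB6, DNAJB6 and HSPA8 begin further upstream, so the stretches of these 3 genes lie within the annotated gene.

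Matches of 3 units stood in 4 of the 63 promoters (6.35%), against 172 of all 35116 promoters of that length (0.490%): DNAJA1 and DNAJB6 rose in 4-OHT, HSPA8 was not called and HSPA6 was under the level for testing. Matches of 2 units stood in 14 of the 63 (22.2%), against 13.5% of all promoters. Among those 14, HSPA1A, HSPA1B, HSPB1, HSPB3, HSPB6, HSPB8 and DNAJC15 fell, DNAJA1, DNAJB6 and HSPA9 rose, HSPA8 and HSPA1L were not called, and HSPA6 and DNAJB7 were not tested. The windows of HSPA1A and HSPA1L overlap on opposite strands, and their matches are the same site, counted under both genes. Genes with a match therefore moved in both directions in the same libraries. A match describes letters in a window and not a bound site. The search took exact units alone, in the window of each gene. Genes without a match, such as DNAJB1 and HSPH1, may still carry the element elsewhere or in another form.

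Small heat shock proteins, the holdases of the cytosol, fell for the most part. Of the 6 that were tested 5 were lower in 4-OHT (83.3%, against 29.9% of all genes) and none higher, with a median log2 fold change of -0.99. HSPB6, or HSP20 (chr19:35754569-35758079, minus strand), had 21.1, 22.0 and 20.9 TPM in 4-OHT, against 104, 109 and 116 TPM in DMSO (-2.31, SE 0.0579, adjusted p = 3.17e-07). On the log2(TPM + 1) scale no other tested gene of the 72 had a larger decrease. The DMSO mean was 5.14 times the 4-OHT mean, against 8.30 times for DNAJC22. That gene is at low level and passed the filter of 1 TPM only through the DMSO libraries.

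HSPB1, or HSP27, by far the most abundant small heat shock protein here (chr7:76302544-76304295, plus strand), had 492, 485 and 468 TPM in 4-OHT, against 837, 765 and 829 TPM in DMSO (-0.75, SE 0.0453, adjusted p = 1.42e-05). The fall was smaller than that of HSPB6 as a ratio and much larger in TPM, and the groups were again fully separated. HSPB2, best known from muscle, had 3.06, 2.58 and 1.72 TPM in 4-OHT, against 7.62, 5.22 and 10.2 TPM in DMSO (-1.31, SE 0.246, adjusted p = 0.00388). It overlaps CRYAB on the opposite strand, and since the strand setting of the counting is not given in the sources used here, reads of the pair cannot be told apart. HSPB3 (-1.23, adjusted p = 0.00957) and HSPB8, the BAG3 partner in chaperone-assisted autophagy (-0.49, adjusted p = 0.0110), fell too. HSPB7, of heart and muscle, stayed under 3.04 TPM in every library and was not called (-0.38, adjusted p = 0.166). The calls of HSPB2, HSPB3 and HSPB8 were lost when no filter on low values was used, with adjusted p of 0.057, 0.11 and 0.087, and held under the other 12 alternatives.

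CRYAB, the alpha-B crystallin, belongs to the same protein family under another kind of symbol and was read from a list of partner genes. It stood at 9.11 ± 0.974 TPM in 4-OHT and 43.9 ± 2.38 TPM in DMSO (SD, n = 3 each; -2.15, SE 0.0920, adjusted p = 2.93e-06), a decrease close to that of HSPB6.

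**Figure D2:**
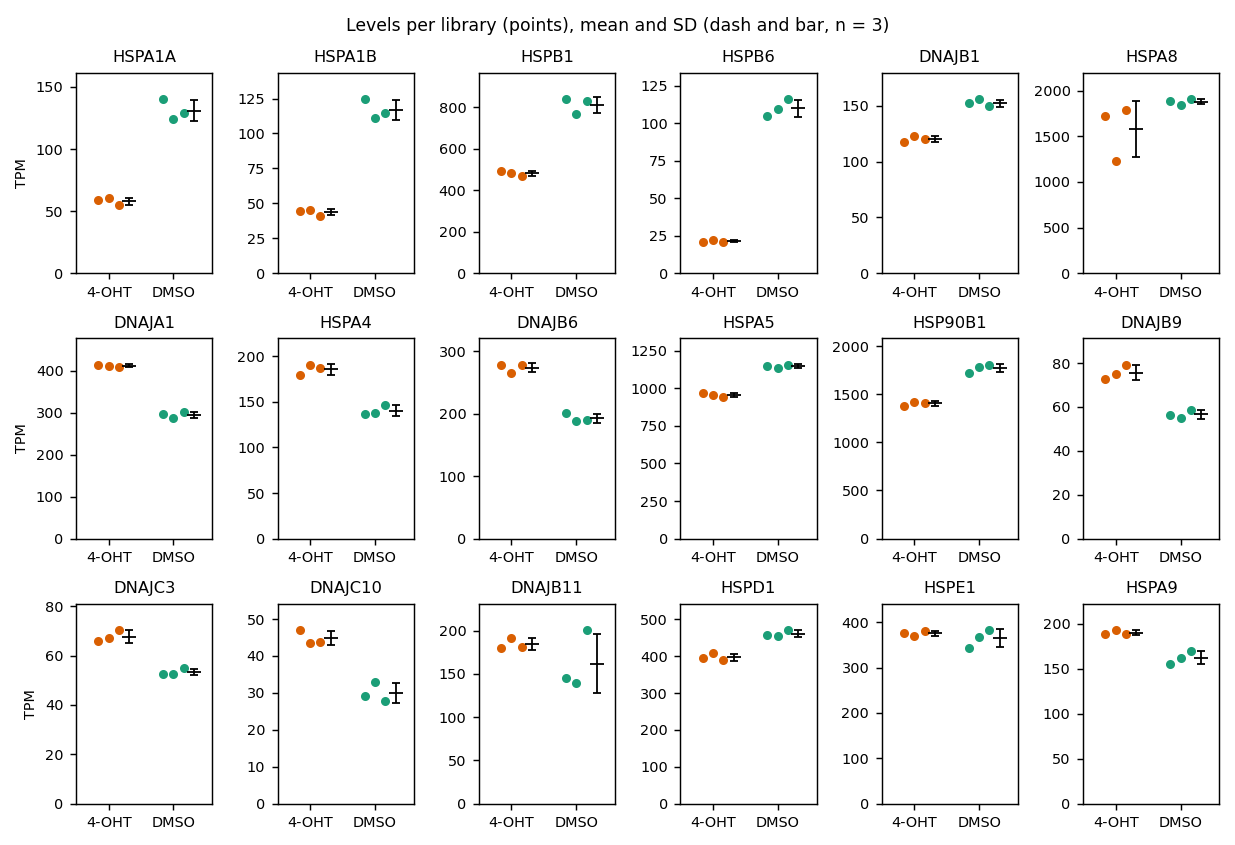
TPM in every library (points) of 18 chaperone genes, 4-OHT left of DMSO, with the mean and SD of the 3 libraries of each group, each panel on its own axis from 0. HSPA1A, HSPA1B, HSPB1 and HSPB6 are fully separated with 4-OHT below, DNAJA1, HSPA4 and DNAJB6 with 4-OHT above, and in HSPA8 and DNAJB11 a single library lies apart from its group.

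The HSP90 genes of the cytosol moved little. HSP90AB1, the constitutive form, had 1015, 1066 and 1047 TPM in 4-OHT, against 1130.2, 1146 and 1195 TPM in DMSO (-0.15, SE 0.0358, adjusted p = 0.0113). HSP90AA1, the stress-inducible form, had 874, 933 and 879 TPM in 4-OHT, against 954, 964 and 1045 TPM in DMSO (-0.14, SE 0.0471, adjusted p = 0.0425). Both were called lower with fully separated groups, but by little (4-OHT means 0.901 and 0.907 of the DMSO means), and the calls were not firm: that of HSP90AB1 was lost under 4 of 13 alternatives (adjusted p between 0.0089 and 0.26) and that of HSP90AA1 under 9 (between 0.034 and 0.49). Within libraries the ratio of HSP90AA1 to HSP90AB1 was 0.859 ± 0.0180 in 4-OHT and 0.853 ± 0.0185 in DMSO (SD, n = 3 each), a log2 difference of 0.01 (exact permutation test, 2-sided, p = 0.9).

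Of the 3 HSP110 genes, whose proteins exchange the nucleotide of HSP70, 2 rose (66.7%, against 19.8% of all genes). That is the other way from HSPA1A and HSPA1B. HSPA4 averaged 186 ± 6.05 TPM in 4-OHT and 140.4 ± 5.82 TPM in DMSO (SD, n = 3 each; 0.40, SE 0.0476, adjusted p = 0.000429). HSPH1, or HSP105, had 125, 123 and 128 TPM in 4-OHT, against 106, 109 and 115 TPM in DMSO (0.19, SE 0.0461, adjusted p = 0.0117). HSPA4L, the third of them, was at 10.8 ± 0.929 TPM in 4-OHT and 10.8 ± 1.66 TPM in DMSO (SD, n = 3 each) and was not called (95% interval of the log2 fold change -0.287 to 0.303).

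Among the J-domain partners of cytosolic HSP70, the class A protein DNAJA1 and the class B protein DNAJB1 parted. DNAJA1 had 415, 412 and 408 TPM in 4-OHT, against 296, 287 and 302 TPM in DMSO (0.48, SE 0.0348, adjusted p = 3.57e-05). DNAJB1, the heat-inducible HSP40, had 118, 123 and 120.0 TPM in 4-OHT, against 152, 156 and 149 TPM in DMSO (-0.34, SE 0.0408, adjusted p = 0.000456). Each separated fully, in opposite directions, so that the ratio of DNAJA1 to DNAJB1 within a library was 3.53, 3.34 and 3.40 in 4-OHT, against 1.95, 1.84 and 2.02 in DMSO (log2 difference 0.82; exact permutation test, 2-sided, p = 0.1, the smallest possible; adjusted p = 0.125 over the 5 ratios, which were chosen after their values were seen).

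DNAJB6, known for holding back the aggregation of polyglutamine proteins, averaged 274 ± 7.52 TPM in 4-OHT and 192 ± 6.94 TPM in DMSO (SD, n = 3 each; 0.51, SE 0.0431, adjusted p = 7.94e-05). DNAJA2 rose less (0.24, adjusted p = 0.00925), and the heat-inducible DNAJA4, at about 5 to 6 TPM, was not called (-0.12, adjusted p = 0.620). DNAJB2, or HSJ1, which binds ubiquitin chains, fell to 19.3 ± 1.46 TPM in 4-OHT, against 40.1 ± 4.44 TPM in DMSO (-1.02, adjusted p = 0.000137). DNAJB4, close to DNAJB1 in sequence, fell by 0.22 on the log2 scale (adjusted p = 0.0129, between 0.0067 and 0.11 over the alternatives, the call being lost with median-of-ratios scaling).

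The DNAJC proteins share only the J domain and serve special tasks. DNAJC12, a co-chaperone of the aromatic amino acid hydroxylases (chr10:67796665-67838166, minus strand), had 5.10, 7.94 and 6.16 TPM in 4-OHT, against 0.270, 1.05 and 0.471 TPM in DMSO (2.22, SE 0.232, adjusted p = 0.000221). It had the largest increase of the 64 genes on the log2(TPM + 1) scale, from a low level at which that scale understates the change: the ratio of the means was 10.7. DNAJC12 passed the filter of 1 TPM only through the 4-OHT group, with means of 6.40 TPM in 4-OHT and 0.598 TPM in DMSO. DNAJC9, which handles histones H3 and H4, fell to 12.3 ± 1.98 TPM in 4-OHT, against 25.8 ± 1.48 TPM in DMSO (-1.02, adjusted p = 0.000425). Its annotated span overlaps that of MRPS16 on the same strand and FAM149B1 on the other. DNAJC8, of the spliceosome (-0.25, adjusted p = 0.00291), and DNAJC21, of ribosome biogenesis (-0.22, adjusted p = 0.0155), fell slightly, and the call of DNAJC21 was lost with median-of-ratios scaling (adjusted p between 0.013 and 0.11 over the alternatives). DNAJC7, which binds HSP70 and HSP90 (0.18, adjusted p = 0.0268), and DNAJC24, of diphthamide synthesis (0.31, adjusted p = 0.0293), rose slightly, and the calls of DNAJC7 and DNAJC24 were lost under 6 and 5 of the 13 alternatives.

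In the ER the dominant chaperones fell modestly while 3 of the 5 J-domain genes of the lumen, whose proteins serve BiP, rose. Over all genes 19.8% were called higher. HSPA5, or BiP, the HSP70 of the ER lumen (chr9:125234853-125241330, minus strand), had 968, 955 and 945 TPM in 4-OHT, against 1149, 1133 and 1159 TPM in DMSO (-0.26, SE 0.0287, adjusted p = 0.000282). HSP90B1, or GRP94, the HSP90 of the lumen (chr12:103930107-103953645, plus strand), had 1381, 1423 and 1412 TPM in 4-OHT, against 1725, 1779.9 and 1810.1 TPM in DMSO (-0.33, SE 0.0315, adjusted p = 0.000133). Replicates of both were tight, and the groups lay apart by several times the spread within them, although the 4-OHT means were still 0.834 and 0.793 of the DMSO means.

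These were also the 2 genes of the 63 with a promoter window that held the ER stress response element, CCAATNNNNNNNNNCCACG on either strand (3.17%, against 27 of all 35116 promoters or 0.0769%). The capitals mark the element, which in the second stretch of HSP90B1 is read on the opposite strand. The windows are again RefSeq's, GRCh38.p14, and GENCODE 29 also has HSP90B1 transcripts that start further upstream.
HSPA5, chr9:125241381-125241419 on the minus strand: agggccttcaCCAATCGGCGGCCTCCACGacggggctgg
HSP90B1, chr12:103930206-103930244 on the plus strand: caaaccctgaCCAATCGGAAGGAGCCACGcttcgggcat
HSP90B1, chr12:103930311-103930349 on the plus strand: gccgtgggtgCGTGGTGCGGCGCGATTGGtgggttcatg

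The HSPA5 stretch lies 76 to 38 bases before the RefSeq start, and those of HSP90B1 204 to 166 and 99 to 61 bases before it. Both genes with the element were lower in 4-OHT, as were 29.9% of all genes, and a link between the element and the direction was not tested. Only exact matches within the window of each gene were searched, so a gene without a match may still carry the element elsewhere or in another form.

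DNAJB9, or ERdj4, an inducible co-chaperone of BiP, had 72.7, 74.9 and 79.3 TPM in 4-OHT, against 56.5, 54.7 and 58.5 TPM in DMSO (0.41, SE 0.0542, adjusted p = 0.000710). DNAJC3, or p58IPK, had 65.8, 66.9 and 70.4 TPM in 4-OHT, against 52.6, 52.6 and 54.9 TPM in DMSO (0.34, SE 0.0508, adjusted p = 0.00136). DNAJC10, or ERdj5, which reduces disulfide bonds of misfolded proteins (chr2:182716041-182794464, plus strand), had 47.1, 43.6 and 43.9 TPM in 4-OHT, against 29.1, 33.0 and 27.7 TPM in DMSO (0.57, SE 0.0781, adjusted p = 0.000857). In all 3 genes every 4-OHT library was above every DMSO library, the opposite order from HSPA5. DNAJB9 overlaps PNPLA8 and THAP5 on the other strand.

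DNAJB11, or ERdj3, the most abundant of these partners, had 180.0, 192 and 181 TPM in 4-OHT, against 145, 139 and 201 TPM in DMSO. Here DMSO replicate 3 lay above all 4-OHT libraries and the other DMSO libraries far below them, and the difference was not called (0.21, SE 0.132, adjusted p = 0.234). Without that library the log2 fold change was 0.37 and the adjusted p 0.0021, against a range of up to 0.77 over the alternatives. DNAJC1, or ERdj1, a membrane protein with its J domain in the lumen, was the exception among the lumenal J-domain genes and fell to 28.9 ± 1.05 TPM in 4-OHT, against 35.5 ± 1.85 TPM in DMSO (-0.29, adjusted p = 0.00822). HSPA13, an HSP70 of microsomes, was at 42.8 ± 2.63 TPM in 4-OHT and 43.2 ± 1.81 TPM in DMSO and was not called (95% interval of the log2 fold change -0.172 to 0.140).

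Summed over DNAJB9, DNAJB11, DNAJC1, DNAJC3 and DNAJC10, the level relative to BiP within a library was 0.407, 0.426 and 0.426 in 4-OHT, against 0.279, 0.276 and 0.326 in DMSO. The 4-OHT libraries were all above, by 0.52 on the log2 scale (exact permutation test, 2-sided, p = 0.1, the smallest possible; adjusted p = 0.125, a ratio chosen after its values were seen). Without each library in turn the difference lay between 0.477 and 0.597.

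Among J-domain proteins of the ER membrane, DNAJB14, whose J domain faces the cytosol, had 32.0, 35.2 and 35.9 TPM in 4-OHT, against 21.5, 24.8 and 23.5 TPM in DMSO (0.54, SE 0.0787, adjusted p = 0.00113). DNAJC18 had 10.5, 11.1 and 11.0 TPM in 4-OHT, against 9.11, 7.70 and 6.91 TPM in DMSO (0.42, SE 0.111, adjusted p = 0.0172). Both were fully separated, but the call of DNAJC18 was lost without 4-OHT replicate 2, without DMSO replicate 2 and with no filter on low values (adjusted p between 0.0033 and 0.081 over the alternatives). DNAJB12, the close relative of DNAJB14, was at 29.5 ± 1.21 TPM in 4-OHT and 31.9 ± 1.65 TPM in DMSO and was not called (-0.11, 95% interval -0.265 to 0.0442), and neither were DNAJC14 and DNAJC16.

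In mitochondria the chaperonin and the import HSP70 moved apart. HSPD1, the HSP60 chaperonin (chr2:197486581-197516737, minus strand), had 394, 408 and 389 TPM in 4-OHT, against 457, 454 and 472 TPM in DMSO (-0.21, SE 0.0356, adjusted p = 0.00215). HSPE1, the HSP10 lid that caps it (chr2:197499994-197503457, plus strand), had 375, 369.8 and 381 TPM in 4-OHT, against 344, 367 and 383 TPM in DMSO (0.04, SE 0.0466, adjusted p = 0.477; 95% interval -0.0668 to 0.153). HSPD1 was thus lower in every 4-OHT library, while the HSPE1 groups overlapped, although the products work in a single complex and the genes lie head to head. HSPE1 was called higher with median-of-ratios scaling (0.14, adjusted p = 0.043, between 0.043 and 0.98 over the alternatives). Within libraries the ratio of HSPD1 to HSPE1 was 1.05, 1.10 and 1.02 in 4-OHT, against 1.33, 1.24 and 1.23 in DMSO (log2 difference -0.26; exact permutation test, 2-sided, p = 0.1, the smallest possible; adjusted p = 0.125). The annotated spans overlap on opposite strands and a read-through entry, HSPE1-MOB4, shares sequence with HSPE1, and with the strand setting not stated in the sources used here, reads from the overlap cannot be told apart.

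HSPA9, or mortalin, the HSP70 of the matrix and of the import motor, had 189, 193 and 188 TPM in 4-OHT, against 155, 162 and 170.0 TPM in DMSO (0.23, SE 0.0457, adjusted p = 0.00522). DNAJC19, the J-domain protein of that motor, had 23.8, 25.3 and 24.4 TPM in 4-OHT, against 30.9, 32.2 and 29.2 TPM in DMSO (-0.32, SE 0.0639, adjusted p = 0.00545). DNAJC15, or MCJ, its inner-membrane relative, had 11.5, 10.2 and 10.9 TPM in 4-OHT, against 18.8, 17.3 and 15.6 TPM in DMSO (-0.62, SE 0.0936, adjusted p = 0.00142). The motor's HSP70 was therefore higher and its 2 J-domain proteins lower, each with separated groups. DNAJA3, or TID1, the class A partner in the matrix, had 39.0, 56.2 and 40.4 TPM in 4-OHT, against 47.7, 37.1 and 43.0 TPM in DMSO, overlapped between groups and was not called (0.07, SE 0.153, adjusted p = 0.727). DNAJC11, linked to the outer membrane (-0.07, adjusted p = 0.310), and DNAJC30, of the inner membrane (0.17, adjusted p = 0.101), were not called either, though DNAJC30 was called higher with both other scalings (adjusted p between 0.026 and 0.26 over the alternatives).

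Of the 9 tested genes placed elsewhere or nowhere, 5 fell (55.6%, against 29.9% of all genes). Among those that fell, DNAJC22, DNAJC25 and DNAJC27 were not placed in any site. HSPB11, which despite its symbol is IFT25 of the ciliary transport complex, had 42.1, 41.9 and 47.9 TPM in 4-OHT, against 70.4, 69.6 and 73.3 TPM in DMSO (-0.68, SE 0.0663, adjusted p = 0.000153). DNAJC25 had 13.0, 12.9 and 13.2 TPM in 4-OHT, against 17.2, 18.5 and 20.2 TPM in DMSO (-0.49, SE 0.0805, adjusted p = 0.00215), and shares its locus with a read-through entry. DNAJC22 had 0.0548, 0.640 and 0.140 TPM in 4-OHT, against 1.61, 2.05 and 3.27 TPM in DMSO (-1.37, SE 0.267, adjusted p = 0.00454). These 3 separated fully, DNAJC22 at levels near the limit for testing. DNAJC22 passed that limit only through the DMSO group, with means of 0.278 TPM in 4-OHT and 2.31 TPM in DMSO. DNAJC27 had 1.47, 1.48 and 2.09 TPM in 4-OHT, against 2.63, 2.93 and 2.44 TPM in DMSO (-0.46, SE 0.157, adjusted p = 0.0460), a call lost under 10 of the 12 alternatives in which it was fitted (adjusted p between 0.019 and 0.3). DNAJC6, or auxilin, which strips clathrin from vesicles with HSC70, fell by 0.42 on the log2 scale (adjusted p = 0.0239, between 0.020 and 0.16 over the alternatives and lost under 6 of them). DNAJC5, the cysteine string protein of secretory vesicles, was the gene of this class that rose, to 61.5 ± 0.260 TPM in 4-OHT, against 46.1 ± 0.498 TPM in DMSO (0.41, adjusted p = 0.000295).

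**Figure D3:**
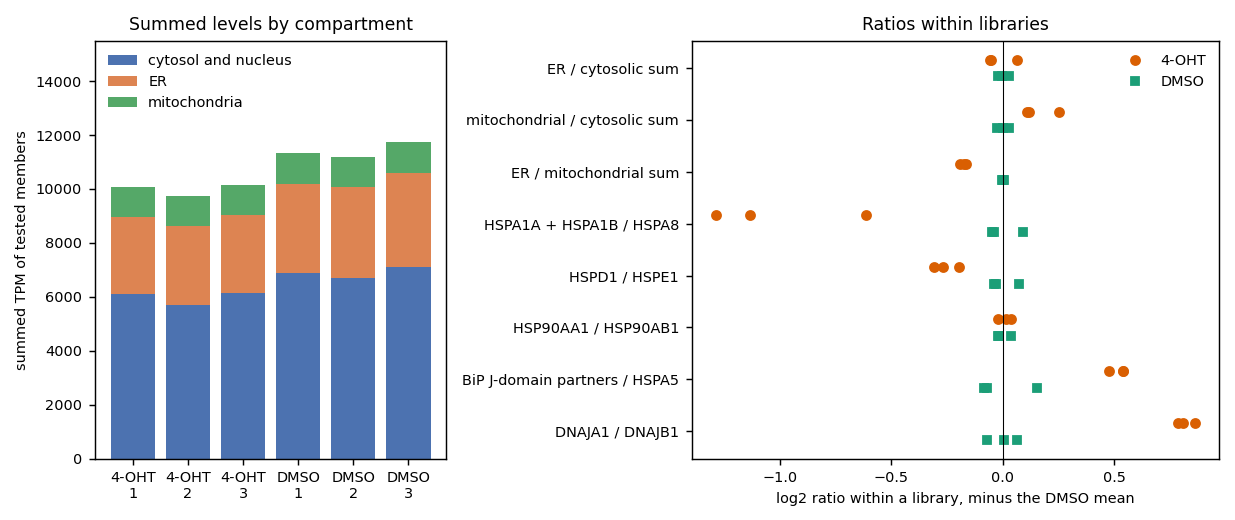
Left, stacked bars of the summed TPM of the tested chaperone genes of the cytosol and nucleus, the ER and the mitochondria in each library. Right, log2 ratios within each library minus the DMSO mean of that ratio, 4-OHT (circles) drawn above DMSO (squares) in each row: ER to cytosol and HSP90AA1 to HSP90AB1 overlap between groups, and the other 6 ratios separate them.

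Taken as sums, the chaperone transcripts of the cytosol and of the ER were lower by about the same factor. The cytosol and nucleus summed to 5972 ± 240.3 TPM in 4-OHT and 6887 ± 198 TPM in DMSO (SD, n = 3 each; log2 difference -0.21), and the ER to 2908 ± 24.4 TPM in 4-OHT and 3392 ± 79.9 TPM in DMSO (-0.22). Mitochondria summed to 1111 ± 16.5 TPM in 4-OHT and 1147 ± 30.5 TPM in DMSO (-0.05), with overlapping groups. For the first 2 sums the exact permutation test, 2-sided, gave p = 0.1, the smallest possible (adjusted p = 0.125 over 5 sums), and for mitochondria p = 0.2. These sums are of the values as deposited and were not taken under the other scalings. The median shift of all log2 fold changes was 0.0916 with median-of-ratios scaling and 0.131 with quantile normalization, so the size of these falls depends on the scaling.

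The contrast of compartments within a library is not moved by a single scaling factor per library. The log2 ratio of ER to cytosol was -1.04 ± 0.0683 in 4-OHT and -1.02 ± 0.0244 in DMSO (SD, n = 3 each; difference -0.02, exact permutation test, 2-sided, p = 0.8). That of mitochondria to cytosol was -2.43 ± 0.0799 in 4-OHT and -2.59 ± 0.0262 in DMSO (difference 0.16, exact permutation test, 2-sided, p = 0.1, adjusted p = 0.15 over 3 ratios; between 0.115 and 0.186 without each library in turn). That of ER to mitochondria was 1.39 ± 0.0128 in 4-OHT and 1.56 ± 0.00457 in DMSO (difference -0.18, exact permutation test, 2-sided, p = 0.1, adjusted p = 0.15). Mitochondrial chaperones thus took a larger share relative to both other compartments in each 4-OHT library, while ER and cytosol overlapped. A few genes set these sums: the 3 most abundant held 87.5% of the ER sum in 4-OHT and 90.8% in DMSO, 86.6% of the mitochondrial sum in 4-OHT and 86.2% in DMSO, and 58.9% of the cytosolic sum in 4-OHT and 58.4% in DMSO. HSPA8 alone took 21.6% of the cytosolic sum in 4-OHT replicate 2, against 26.8% to 29.2% in the other 5 libraries. Without the most abundant gene of each compartment the ratio of ER to cytosol differed by 0.08 in place of -0.02, so its direction turned, and that of mitochondria to cytosol by 0.25.

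Beyond the heat shock and DNAJ symbols, 70 partner genes of the chaperone system were read from the same fit. Of the 69 tested, 18 were higher and 16 lower in 4-OHT, or 49.3%, a share near the 49.6% of all genes. HSF1, the main heat shock factor, was higher at 69.3 ± 1.43 TPM in 4-OHT and 55.5 ± 1.62 TPM in DMSO (SD, n = 3 each; 0.32, SE 0.0480, adjusted p = 0.00142), while HSF2 fell to 10.5 ± 1.06 TPM in 4-OHT, against 15.2 ± 0.731 TPM in DMSO (-0.49, adjusted p = 0.00451). The transcript of HSF1 and those of HSPA1A and HSPA1B thus differed in opposite directions. The transcript level says nothing of how active the factor was.

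Of 13 HSP90 co-chaperones 5 were higher and 3 lower (61.5% called, against 49.6% of all genes). FKBP5, the immunophilin of steroid receptor complexes, fell to 4.46 ± 0.385 TPM in 4-OHT, against 14.1 ± 0.793 TPM in DMSO (-1.47, SE 0.0978, adjusted p = 2.3e-05). CDC37, which brings kinases to HSP90, rose (0.37, adjusted p = 0.000374). Of 9 HSP70 exchange factors and ubiquitin links 3 were higher and 1 lower (44.4% called, under the share of all genes). BAG5 rose (0.55, adjusted p = 0.00356) and BAG2 fell (-0.58, adjusted p = 0.000350). BAG3, which pairs with HSPB8, was at 75.2 ± 2.58 TPM in 4-OHT and 75.5 ± 5.38 TPM in DMSO and was not called (95% interval of the log2 fold change -0.153 to 0.144).

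The cytosolic chaperonin and prefoldin, which fold actin and tubulin, had 5 of 14 genes higher and 1 lower. That is 42.9% called, under the 49.6% of all genes. PFDN2, a prefoldin subunit, was at 305 ± 5.81 TPM in 4-OHT and 166 ± 6.83 TPM in DMSO (SD, n = 3 each; 0.88, SE 0.0433, adjusted p = 5.71e-06), and CCT8, a chaperonin subunit, rose by less (0.32, adjusted p = 0.00126). Of 13 ER folding partners 2 were higher and 5 lower (53.8% called). SERPINH1, or HSP47, the collagen chaperone, had 391, 393 and 385 TPM in 4-OHT, against 862, 523 and 772 TPM in DMSO (-0.85, SE 0.167, adjusted p = 0.00479), separated although DMSO replicate 2 was well under its fellows. SDF2L1, which works with BiP and ERdj3, fell as well (-0.54, adjusted p = 0.000603).

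Of 6 ER stress sensors and factors 1 was higher and 1 lower (33.3% called, against 49.6% of all genes). ERN1, the IRE1 sensor, rose to 11.6 ± 0.484 TPM in 4-OHT, against 5.94 ± 0.332 TPM in DMSO (0.86, adjusted p = 0.000208), and DDIT3, or CHOP, fell to 30.2 ± 7.39 TPM in 4-OHT, against 53.3 ± 3.61 TPM in DMSO (-0.82, adjusted p = 0.00390). ATF4 was not called (-0.15, adjusted p = 0.279), and nor was XBP1 (-0.18, adjusted p = 0.452). The calls of SERPINH1 and DDIT3 were lost with no filter on low values, at adjusted p of 0.081 and 0.064. Of 9 mitochondrial partners 1 was higher and 2 were lower (33.3% called, again under the share of all genes). GRPEL1, the exchange factor of HSPA9, was higher (0.67, adjusted p = 0.000212), as HSPA9 itself was. The protease LONP1 was among the 2 that were lower (-0.39, adjusted p = 0.000544).

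**Figure D4:**
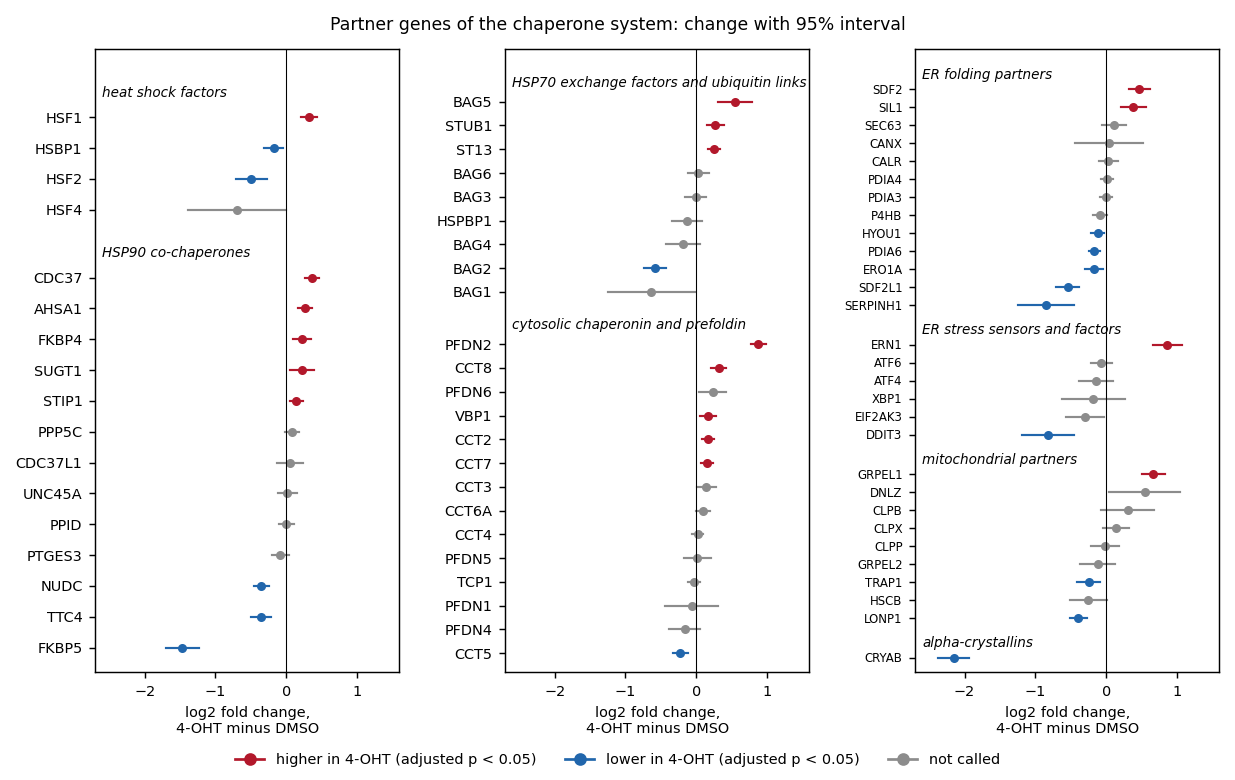
Log2 fold change (4-OHT minus DMSO, log2(TPM + 1) scale, horizontal axis) of the 69 tested partner genes of the chaperone system, grouped by list, with 95% confidence intervals from limma. Called genes lie on both sides of 0, 18 to the right and 16 to the left, with CRYAB at -2.15 and FKBP5 at -1.47 at the low end.

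How firmly each value can be read depends on the sequence and position of its gene. Of the 64 tested genes 24 overlap another gene with a mean of at least 1 TPM in the GENCODE 29 annotation. Many of the abundant chaperones have processed pseudogenes, which take up a share of reads: the 17 listed for HSPA8 summed to at most 6.15 TPM in a library, the 17 for HSPD1 to at most 6.65 TPM and the 26 for HSPE1 to at most 8.81 TPM. Those sums are small beside the levels of the genes themselves.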

How the data were processed

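Bulk RNA-seq of 6 libraries was used as deposited by the authors, in TPM per gene symbol; the libraries summed to between 998367 and 998843. Trim Galore 0.6.6, STAR, StringTie and GRCh38 were used, per the submitters' processing notes. The sources used here do not name the annotation, the strand setting or any scaling between libraries. TPM keep no read depth, so counting intervals are left out. The DMSO replicate 3 column, also TPM deposited by the authors, had 1 value slightly below 0, set to 0. Each library started from 1 µg of RNA, per the labels.

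The test was limma 3.58.1 (R 4.3.3, eBayes with a variance trend, no covariates) on log2(TPM + 1), 2-sided, for genes whose mean reached 1 TPM, with Benjamini-Hochberg adjustment over 15272 genes. Fold changes are on that scale, which understates the change of low genes. The test was also run on simulated data with changes of 0.5, 1 and 2 set on that scale in 67, 67 and 66 genes, far fewer than the 7579 called in the real data. It recovered 49.3%, 68.7% and 84.8% of them, and 12 of its 147 calls were false. Sums and ratios were compared by exact permutation tests (scipy 1.17.1). Alternatives were other scalings, filters and pseudocounts, no trend, a replicate block and leaving out each library. Transcript identity came from blastn 2.17.0, and tables and plots from Python 3.11.15 (numpy 2.4.6, pandas 2.3.3, matplotlib 3.10.9). Compartments and roles are textbook assignments. Values per library and the full test are given for 18 core genes and up to 4 genes per compartment with the largest called change, and for up to 2 genes per partner list with HSF1. Other genes are given by means or counts, or were chosen after their values were seen. The genes and lists were chosen with earlier results of these data known.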

Additional observations from a re-analysis of the deposited data

How the results depend on the processing

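Of the 41 called heat shock and DNAJ genes 27 kept their call and direction under all 13 alternatives, 2 (DNAJC12 and DNAJC22) under the 12 in which they were fitted, and none of the 41 reversed in any fit that held it. DNAJC12 and DNAJC22 each reached a mean of 1 TPM only through the group in which they were higher. Calls higher and lower numbered 12 and 19 with no filter on low values, 14 and 24 with a mean of at least 5 TPM, 14 and 24 without the variance trend, 15 and 25 with a pseudocount of 0.1, and between 12 and 16 higher and 23 and 25 lower without each library in turn. Over all genes the count called was between 5505 and 7610. The median shift of all log2 fold changes was 0.0916 with median-of-ratios scaling and 0.131 with quantile normalization. The median of the cytosolic genes was -0.126 and -0.124 and that of the ER genes 0.167 and 0.171 under these scalings, the mitochondrial median was 0.0842 with the first, and the cytosolic one was -0.129 with no filter. Without each library in turn the cytosolic median lay between -0.226 and -0.179, the ER median between -0.0391 and 0.28 and the mitochondrial one between -0.087 and 0.00425. The ER median was below 0 without 4-OHT replicate 3 (-0.0391) and without DMSO replicate 2 (-0.00895), 0.28 without DMSO replicate 3, 0.178 without 4-OHT replicate 2 and 0.139 without DMSO replicate 1; the mitochondrial one was -0.087 without 4-OHT replicate 2 and -0.0554 without DMSO replicate 2. The ratio of ER to cytosol differed by 0.0816 and that of mitochondria to cytosol by 0.249 without the most abundant gene of each compartment. Partner genes called lower numbered 10 with median-of-ratios scaling and 10 with no filter, against 16.

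Some genes that were not called turned in sign. With median-of-ratios scaling DNAJC11 was at 0.0275, HSPA12A at 0.00303 and HSPA13 at 0.0799, and with quantile normalization HSPA12A was at 0.0857 and DNAJA4 at 0.144. Without single libraries HSPA4L lay between -0.0877 and 0.114, HSPA13 between -0.0484 and 0.035, DNAJA3 between -0.0926 and 0.166, DNAJC16 between -0.212 and 0.291, DNAJC13 between -0.00501 and 0.0859, DNAJA4 between -0.255 and 0.0266 and DNAJC2 between -0.00869 and 0.055. Calls were lost without 4-OHT replicate 1 (HSP90AA1, DNAJC27), 4-OHT replicate 2 (DNAJC6, DNAJC7, DNAJC18, DNAJC24, DNAJC27), 4-OHT replicate 3 (HSP90AA1, DNAJC24), DNAJC7, DNAJC24 and DNAJC27 without DMSO replicate 1, HSP90AA1, DNAJC6, DNAJC7, DNAJC18 and DNAJC27 without DMSO replicate 2, and HSP90AA1, DNAJC6, DNAJC24 and DNAJC27 without DMSO replicate 3. Calls were gained by HSPE1 and DNAJC30 with median-of-ratios scaling, DNAJC30 and HSPA14 with quantile normalization, DNAJB11 without DMSO replicate 3, HSPA14 without 4-OHT replicate 1 and DNAJC17 without DMSO replicate 2. The cause of these changes was not tested.

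Over all genes tested, replicate numbers showed no clear pairing of the libraries. Same-numbered libraries had correlations of 0.0475, 0.00549 and 0.00664 in their deviations from the group means, and not every library correlated best with its own number. These correlations are over all genes together and do not speak for single genes. With the replicate block 14 heat shock and DNAJ genes were higher and 25 lower, 7065 genes were called in all, and HSPA2 was called (adjusted p 0.024, between 0.024 and 0.66 over its alternatives). With 3 libraries a group and unknown depth, changes of genes at a few TPM are the least certain, and the exact test cannot go below 0.1.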
